A study of Mus musculus with 11 samples.

Results

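The small nucleolar RNA (snoRNA) loci of 4T1 cells were taken as all rows of the expression table whose gene name begins with Snora or Snord and a number. There were 105 such loci among 24197 rows, 36 named Snora (box H/ACA) and 69 named Snord (box C/D). 4T1 is a mouse mammary carcinoma line of BALB/c origin, and all 11 libraries came from this single line. The 4HC group (3 libraries) received 5 uM of 4-hydroperoxycyclophosphamide, a precursor of the active, DNA-alkylating form of cyclophosphamide, for 4 h and was collected 68 h after exposure. The 4HC + IFNAR1 antibody group (3 libraries) had the same exposure with 10 ug/mL of MAR1-5A3, an antibody that blocks the type I interferon receptor subunit IFNAR1. By the study's methods the antibody was also in the fresh medium given after the exposure, until collection. The IFNβ group (3 libraries) received 250 U/mL of interferon-β for 4 h and, by its sample labels, was collected 2 h later. The control group (2 libraries) received vehicle and was collected at 72 h. No group carried a genetic change by its labels.

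In mammals most snoRNAs are not transcribed from genes of their own. They lie in introns of host genes, are released from the excised intron, and are protected from exonucleases by the proteins they assemble with. Box C/D snoRNAs bind fibrillarin, Nop56, Nop58 and Snu13 and guide 2′-O-methylation of ribosomal RNA, and box H/ACA snoRNAs bind dyskerin, Gar1, Nhp2 and Nop10 and guide pseudouridylation. Many hosts are genes for ribosomal proteins, nucleolar proteins and translation factors, whereas others, such as Gas5 and the Snhg genes, are spliced RNAs not known to encode a protein. The libraries were made from polyadenylated RNA, and mature snoRNAs carry no poly(A) tail. Reads at a locus may therefore belong to the snoRNA, its precursor, or an intron or exon of the host, and these cannot be told apart here; changes are changes in reads at the locus.

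The loci whose values carry the results are shown by sequence, 5′ to 3′ on the transcribed strand, as drawn from the GENCODE M21 transcripts on GRCm38. In the box C/D loci capitals mark TGATGA starting within the first 20 bases (a C box) and CTGA within the last 20 bases (a D box).
Snord53: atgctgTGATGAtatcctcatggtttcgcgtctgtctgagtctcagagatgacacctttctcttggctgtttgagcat
Snord49b: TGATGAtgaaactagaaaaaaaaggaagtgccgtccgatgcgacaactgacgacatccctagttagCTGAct
Snord49a: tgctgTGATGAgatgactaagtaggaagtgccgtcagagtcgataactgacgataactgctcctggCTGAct
Snord42b: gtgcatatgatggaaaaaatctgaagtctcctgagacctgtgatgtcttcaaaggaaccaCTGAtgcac
Snord22: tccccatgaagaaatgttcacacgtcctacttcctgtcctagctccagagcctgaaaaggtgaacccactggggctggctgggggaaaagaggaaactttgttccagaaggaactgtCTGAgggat
Snord47: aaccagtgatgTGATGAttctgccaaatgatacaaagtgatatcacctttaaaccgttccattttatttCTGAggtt
Snord16a: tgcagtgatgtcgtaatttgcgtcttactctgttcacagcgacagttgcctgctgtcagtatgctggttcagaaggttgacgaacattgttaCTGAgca
In the box H/ACA loci capitals mark ACA within the last 8 bases.
Snora65: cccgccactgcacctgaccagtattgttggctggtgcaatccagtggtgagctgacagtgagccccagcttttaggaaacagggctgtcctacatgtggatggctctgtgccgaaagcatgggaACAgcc
Snora75: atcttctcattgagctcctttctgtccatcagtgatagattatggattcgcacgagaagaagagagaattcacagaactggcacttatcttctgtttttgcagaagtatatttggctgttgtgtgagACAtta
Snora7a: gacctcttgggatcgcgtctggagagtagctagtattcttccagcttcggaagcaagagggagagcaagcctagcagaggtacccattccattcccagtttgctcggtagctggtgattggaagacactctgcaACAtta
Snora21: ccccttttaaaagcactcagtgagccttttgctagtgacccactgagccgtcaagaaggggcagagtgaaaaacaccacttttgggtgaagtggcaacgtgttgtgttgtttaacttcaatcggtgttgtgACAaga
Snora24: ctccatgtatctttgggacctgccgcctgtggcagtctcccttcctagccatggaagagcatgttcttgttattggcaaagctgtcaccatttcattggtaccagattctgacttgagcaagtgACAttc
On GRCm38 these lie, in the order printed, at chr17:71640879-71640956, chr11:62603079-62603150, chr11:62603450-62603521, chr11:78183056-78183124, chr19:8725866-8725991, chr1:161038082-161038158, chr9:64175423-64175521, and at chr2:32963291-32963420, chr1:86351169-86351301, chr6:115807975-115808114, chr11:97781639-97781775, chr3:123507937-123508066. Snora75, Snora7a, Snora21, Snora24 and Snord42b are on the minus strand and the others on the plus strand. Reads were counted over shorter spans than the sequences shown at most of these loci, such as 116 bases against 133 at Snora75 and 118 against 130 at Snora65. The lengths were equal at Snord22 and Snora24. A marked motif may thus lie outside the counted span. Of the 105 names 103 had a transcript. TGATGA stood near the start of 43 of 67 C/D loci (64.2%) and 0 of 36 H/ACA loci (0%), and CTGA near the end of 65 C/D (97.0%) and 4 H/ACA loci (11.1%). ACA stood near the end of 34 of 36 H/ACA loci (94.4%) and 6 of 67 C/D loci (8.96%). These motifs were searched on the transcribed strand by exact letters, taking the first TGATGA and the last CTGA or ACA of each sequence. CTGA and ACA thus followed the class names at most loci. Snord53 had no exact D box match, and Snord42b, Snord22 and Snord16a no exact C box match, which says only that those letters are not in that window.

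The table gives one value per group, the mean fragments per kilobase of locus and per M (mega) reads, or FPKM. At loci this short the mean could be resolved into whole reads of each library, which was done for all 105 loci. Libraries held 32.1 to 49.3 M counted reads, and the libraries of a group are called a, b and c from the deepest to the shallowest. Reads were found at 91 to 98 of the 105 loci in each library. A total of 84 loci, 53 C/D and 31 H/ACA, had 50 or more reads over all libraries and were compared between groups. Of the other 21 loci, 15 had 1 to 49 reads and 6 were at 0 in every group: Snord116, 2 further copies of it (Snord116l1 and Snord116l2), Snord123, Snord61 and Snora35. Snord116 copies belong to the imprinted cluster linked to Prader-Willi syndrome and are known for expression in brain. Of the loci to be named whatever their level, Snord118 (U8), Snord13, Snord3a (U3), the Snord14 copies, Snora73a and Snora73b (U17), Snord44, Snord74 to Snord81 and Snord115 matched no row and were not analysed here.

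The epithelial markers Epcam, Krt8, Krt18 and Cdh1 were present in all groups. Epcam was at 32.5 FPKM with 4HC, 33.3 with 4HC + IFNAR1 antibody, 15.2 with IFNβ and 19.3 in control, Krt8 at 134, 136, 91.1 and 52.3, Krt18 at 206, 218, 101 and 88.1, and Cdh1 at 50.5, 49.1, 71.4 and 63.0 in the same order. Krt8 and Krt18 were thus past 2-fold higher in both groups exposed to 4HC, while Cdh1 was lower. The leukocyte and endothelial markers Ptprc, Cd3e, Itgam, Pecam1 and Cdh5 were all under 0.07 FPKM. The fibroblast marker Pdgfra was at 3.38, 4.13, 0.442 and 0.496 FPKM in the same order of groups and Col1a1 at 0.229, 0.313, 0.093 and 0.0723 FPKM, and their part in the results was not tested. Since whole cultures were measured, fewer cells of a type and less RNA per cell cannot be told apart.

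Counted over all 105 loci, snoRNA loci took a smaller share of reads after 4HC, with or without the antibody, and close to the control share after IFNβ. The 3 libraries of 4HC had 74.5, 72.3 and 88.2 snoRNA reads per M counted reads, and those of 4HC + IFNAR1 antibody had 96.4, 66.1 and 70.9. The IFNβ libraries had 124, 126 and 130, and the control libraries 138 and 138. All 6 libraries exposed to 4HC were thus below all 5 others, and the IFNβ libraries lay below both control libraries by a smaller step. The 1136 other rows spanning 300 bases or less, used as the comparison set since they share the short length, stayed between 516 and 594 reads per M in every library. No test was made of these sums, as they run over the chosen loci.

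**Figure D1:**
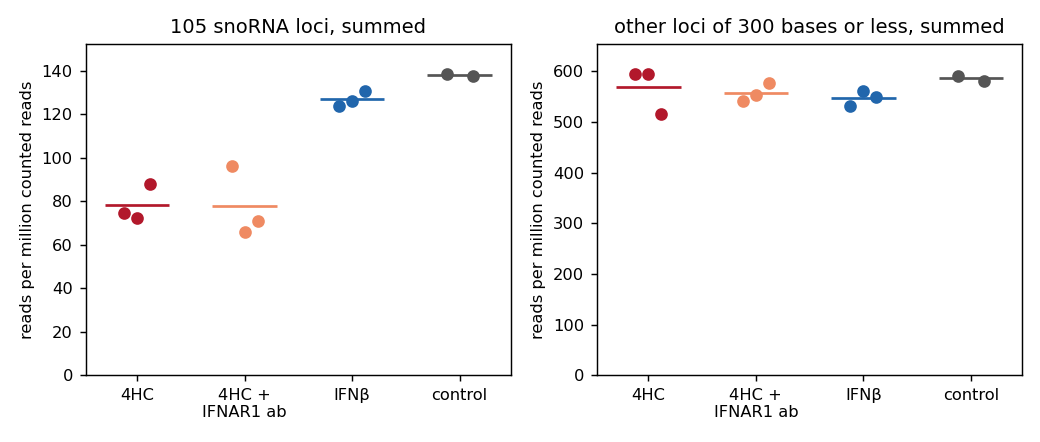
Reads per M counted reads summed over the 105 snoRNA loci (left) and over the other rows of 300 bases or less (right), 1 point per library and a bar at the mean of each group. The 6 libraries exposed to 4HC lie between 66.1 and 96.4 at the snoRNA loci and the other 5 between 124 and 138.

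The first comparison asked how snoRNA loci stood 68 h after 4HC relative to vehicle. A locus was called lower or higher when the ratio of its mean FPKM was under 0.5 or over 2 and the exact 95% counting interval of the ratio excluded 1. By this rule 30 of 84 snoRNA loci were called lower (35.7%) and 0 higher. Among the 185 other short loci with 50 or more reads, 178 of them microRNA rows, 28 were called lower (15.1%) and 20 higher (10.8%). Of 10225 rows averaging over 1 FPKM, 1.94% were past 2-fold lower and 12.7% past 2-fold higher. The median log2 ratio of the 84 loci was −0.77, with 71 below 0, whereas that of the other short loci was −0.02 and that of all rows over 1 FPKM in both groups was 0.07. These intervals cover counting error only, while the libraries of a group varied by 2.13 times the Poisson variance with 4HC and 4.05 times in control. Mates of a pair may have been counted separately, which alone would raise these figures and make the intervals too narrow.

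Differences between groups were therefore also tested against the spread between libraries. This was done with limma on log2 reads per M, fitted at once to all 269 short loci with 50 or more reads. At an adjusted p below 0.05 and a change over 2-fold, 18 snoRNA loci fell after 4HC and 0 rose, against 3.24% of the other short loci that fell and 9.19% that rose. At an unadjusted p under 0.05 there were 35 lower and 0 higher, against 12.4% and 14.6% of the other short loci. The 4HC libraries lay wholly below the control libraries at 43 of the 84 loci, against 21.6% of the other short loci. Of the 18 loci, 10 passed whichever of the 5 libraries was left out, and these are Snora21, Snora5c, Snora65, Snora68, Snora75, Snora7a, Snora81, Snord32a, Snord34 and Snord49b. Snord45b passed in 0 of the 5 and Snord19, Snord37, Snord57 and Snord83b in 2 each.

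Snora65, an H/ACA locus in the ribosomal protein gene Rpl12 (chr2:32818820-32818938 in the mm9 coordinates of the table), had the highest FPKM of all snoRNA loci averaged over groups. It had 61.4, 65.6 and 72.4 FPKM with 4HC, 65.0, 50.1 and 49.4 with 4HC + IFNAR1 antibody, 134, 122 and 104 with IFNβ, and 169 and 204 in control. The groups exposed to 4HC overlapped each other and lay below IFNβ, which lay below control. The fitted log2 change was −1.48 (SE 0.17, limma adjusted p = 2.90e-06) for 4HC over control, −1.77 (adjusted p = 1.44e-07) with the antibody, and −0.64 (adjusted p = 0.0176) for IFNβ.

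Snora75 lies in Ncl, the gene for nucleolin, an abundant nucleolar protein (chr1:88247744-88247860). It had 4.60, 5.31 and 6.72 FPKM with 4HC, 8.94, 5.16 and 7.66 with 4HC + IFNAR1 antibody, 27.4, 41.5 and 45.5 with IFNβ, and 16.6 and 26.1 in control. Every library exposed to 4HC was below every other library, and the IFNβ libraries were above both controls. Snora75 fell after 4HC (log2 −1.91, SE 0.32, limma adjusted p = 0.00039) and with the antibody (−1.55, adjusted p = 0.00233), and the IFNβ difference of 0.83 did not pass (adjusted p = 0.106). Ncl itself was at 99.5 FPKM with 4HC, 99.8 with the antibody, 161 with IFNβ and 124 in control. Snord82, a C/D locus of the same host with 36 reads in all and so not compared, had 2, 0 and 0 reads with 4HC, 1, 0 and 2 with the antibody, 7, 11 and 2 with IFNβ and 6 and 5 in control.

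Snora7a, in the ribosomal protein gene Rpl32 (chr6:115757992-115758121), had 8.87, 10.8 and 14.3 FPKM with 4HC, 9.53, 10.7 and 6.28 with 4HC + IFNAR1 antibody, 32.7, 30.5 and 18.1 with IFNβ, and 27.1 and 49.7 in control. The groups exposed to 4HC were again separate from the others, and IFNβ overlapped control. Snora7a fell by 1.72 on the log2 scale after 4HC (SE 0.32, limma adjusted p = 0.000996) and by 2.08 with the antibody (adjusted p = 0.000137). Snora21, in Rpl23 (chr11:97642952-97643080), had 3.57, 2.93 and 2.43 FPKM with 4HC against 9.39 and 10.9 in control, with no overlap (log2 −1.74, SE 0.37, adjusted p = 0.00294).

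Snord53 had the lowest ratio of all. It lies in Wdr43, a gene for a nucleolar protein of early small-subunit processing (chr17:71990228-71990296), and had 3, 1 and 0 reads with 4HC, 7, 1 and 2 with 4HC + IFNAR1 antibody, 4, 6 and 5 with IFNβ, and 24 and 13 in control. Every treated library had fewer reads than either control library. The ratio of mean FPKM for 4HC over control was 0.065 (95% counting interval 0.0179 to 0.192), and the fitted log2 change was −3.78 (SE 0.92, limma adjusted p = 0.00612), which rests on few reads, and without control library a the locus had under 50 reads and was not compared. Wdr43 was at 31.2 FPKM with 4HC, 27.8 with the antibody, 49.3 with IFNβ and 58.9 in control. Snord19, in Gnl3 (nucleostemin, a nucleolar GTP-binding protein), had 14.1, 16.4 and 26.0 FPKM with 4HC against 63.7 and 31.9 in control (log2 −1.30, adjusted p = 0.0382), and without control library a its log2 change was −0.80 (adjusted p = 0.322). Snord11, in the gene for the core protein Nop58, was called lower (ratio 0.270) and did not pass limma (adjusted p = 0.142).

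**Figure D2:**
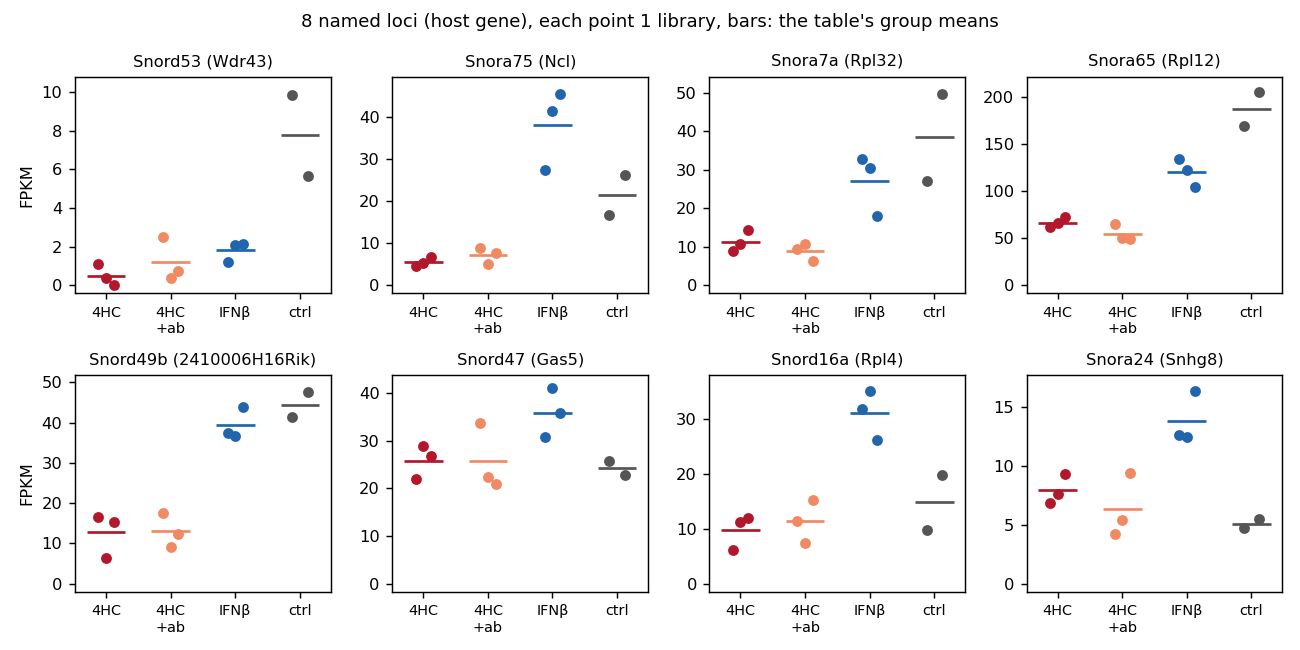
FPKM of 8 snoRNA loci in each library (points) with the mean of each group (bars), the vertical axis of each panel starting just below 0. In the top row and at Snord49b every point of both groups exposed to 4HC is below the controls, whereas Snord47 overlaps control and Snord16a and Snora24 are highest with IFNβ.

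Other abundant loci had smaller differences or none that passed the test. Snord47, in Gas5, had 21.9, 28.9 and 26.8 FPKM with 4HC against 25.8 and 22.9 in control, so the libraries overlapped (ratio 1.06, counting interval 0.829 to 1.35, limma adjusted p = 0.838). Snord52, in the noncoding host 1110038B12Rik, had 50, 42.2 and 58.6 FPKM with 4HC against 46.4 and 37.8 in control (ratio 1.19, interval 0.978 to 1.43). Snord96a, in Rack1, a gene for a ribosome-associated scaffold protein, had 42.9, 42.8 and 48.6 FPKM with 4HC, all below 58.5 and 59.0 in control. Its counting interval excluded 1 and it did not pass limma (ratio 0.762, interval 0.651 to 0.884, adjusted p = 0.181). Snord22 (U22), known from frog oocytes to be needed for ribosomal RNA processing, lies in Snhg1 and was the locus with the second highest level. It had 60.9, 65.7 and 70.2 FPKM with 4HC against 89.4 and 113 in control, and its change was smaller than 2-fold (ratio 0.648, log2 −0.62, SE 0.19, adjusted p = 0.0253).

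By class, 22 of 53 C/D loci and 8 of 31 H/ACA loci were called lower after 4HC, and 11 C/D and 7 H/ACA loci fell by limma. The median log2 ratios were −0.90 for C/D and −0.63 for H/ACA loci, and the difference between the classes was not tested. The loci were also grouped by what the host encodes, again without a test between groups. Loci in nucleolar protein genes had a median of −1.37 (7 of 9 called lower, 4 fell), those in ribosomal protein genes −0.96 (14 of 29, 9 fell), in genes of translation factors or their partners −0.81 (3 of 9, 2 fell), in other coding genes −0.77 (3 of 12, 2 fell) and in noncoding hosts −0.41 (3 of 23, 1 fell). The loci placed by GENCODE in introns only had a median of −0.89 (36 loci), those covered only by a retained-intron transcript −0.90 (29 loci), and those overlapping an exon of a spliced transcript −0.61 (14 loci).

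The hosts moved less than the loci. A host was the shortest longer row that contains the locus on its strand. Of the 84 loci 82 had one, in 59 distinct host genes, and for Snora43, Snora17 and Snora74a the strand could not be checked. The median log2 ratio of the 59 hosts for 4HC over control was −0.25, with 0 hosts below a ratio of 0.5, against 1.94% of rows over 1 FPKM past 2-fold lower. The locus ratio minus the host ratio had a median of −0.58 on the log2 scale, and 21 loci were lower than their host by more than 1 whereas 0 were higher by that much. Median host ratios were −0.69 for nucleolar, −0.31 for ribosomal, −0.01 for translation factor and −0.32 for noncoding hosts. The rank correlation of locus and host ratios over the 82 loci was 0.17, given as a description, as loci of 1 host share their host value and both ratios share the control libraries. Host values exist only as group means, so the difference from the host has no test.

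**Figure D3:**
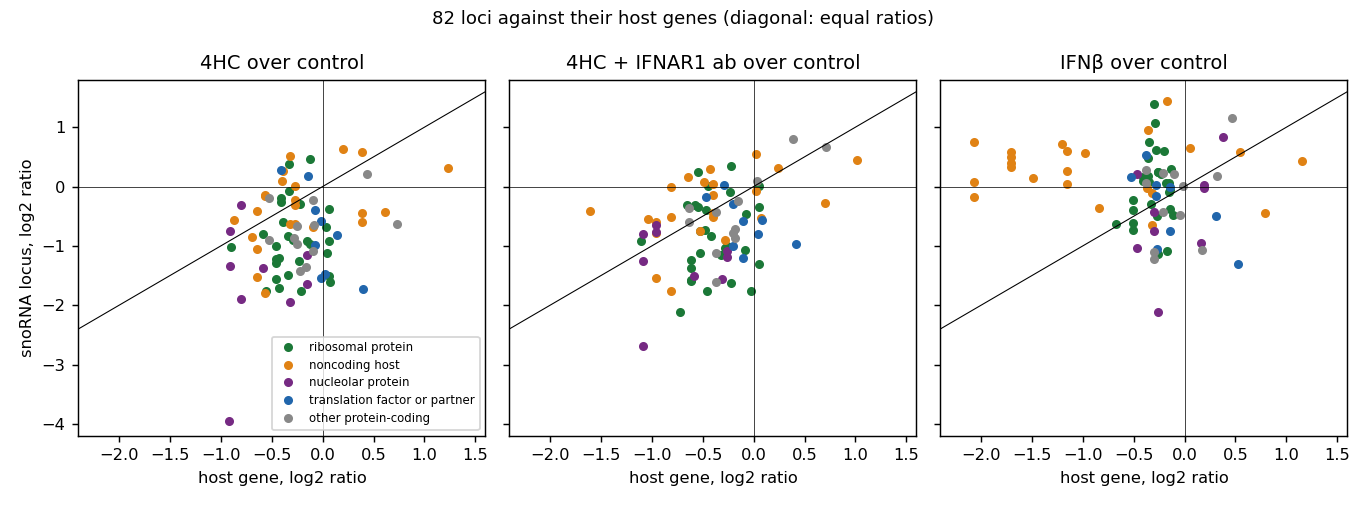
Log2 ratio of mean FPKM of 82 snoRNA loci (vertical) against that of the host gene (horizontal) in the 3 comparisons with control, coloured by host class, with a diagonal at equal ratios. With 4HC most points lie below the diagonal (median difference −0.58). With IFNβ 11 of 15 noncoding hosts lie left of 0, while 6 of the 23 loci in noncoding hosts lie below 0.

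Rpl13a, a large-subunit ribosomal protein gene, carries 4 of the loci, and all 4 were called lower after 4HC: Snord32a (ratio 0.338), Snord34 (0.412), Snord35a (0.429) and Snord33 (0.497). Snord32a (chr7:52382752-52382833) had 7.22, 10.6 and 8.85 FPKM with 4HC against 26.6 and 26.0 in control, and Snord33 had 16.4, 16 and 19.4 against 30.0 and 39.5. The 4HC libraries were below control at each of the 4 loci, with limma adjusted p of 0.0025 for Snord32a, 0.00987 for Snord34, 0.0123 for Snord35a and 0.0202 for Snord33. The fitted log2 change of Snord33 was −0.993, short of 2-fold, so it is not counted among the loci that fell by limma. Rpl13a was at 435 FPKM with 4HC and 596 in control. Without 4HC library a, 4HC library b or control library b the Snord33 ratio was no longer under 0.5, and without 4HC library b or control library b Snord35a was not either.

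Snhg12, a noncoding host, also carries 4 loci and gave another picture. Snora16a (ratio 1.00), Snord99 (0.857), Snora61 (0.807) and Snora44 (0.644) were not called after 4HC, and their libraries overlapped those of control. Snhg12 itself was at 67.4 FPKM with 4HC and 81.2 in control.

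Loci of the same host did not always keep together. Among 16 hosts with 2 or more compared loci (39 loci), the loci of 5 hosts differed by more than 1 in log2 ratio for 4HC over control, and the median range within a host was 0.67. The widest range, 1.66, was in the noncoding host 2410006H16Rik, whose Snord49a and Snord65 were singled out after their values were seen. Snord49b (chr11:62416587-62416650) had 16.5, 6.38 and 15.3 FPKM with 4HC, 17.6, 9.09 and 12.4 with 4HC + IFNAR1 antibody, 37.3, 36.7 and 43.9 with IFNβ, and 41.3 and 47.6 in control. Snord49b fell after 4HC (log2 −1.90, SE 0.36, limma adjusted p = 0.00114) and with the antibody (−1.80, adjusted p = 0.00211), with no overlap of libraries. Snord49a, shown above beside it, had 18, 16 and 17.6 FPKM with 4HC against 22.5 and 15.3 in control, which overlap (ratio 0.909, adjusted p = 0.788). Snord65 had a ratio of 0.898 (adjusted p = 0.727). The host was at 388 FPKM with 4HC and 574 in control.

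**Figure D4:**
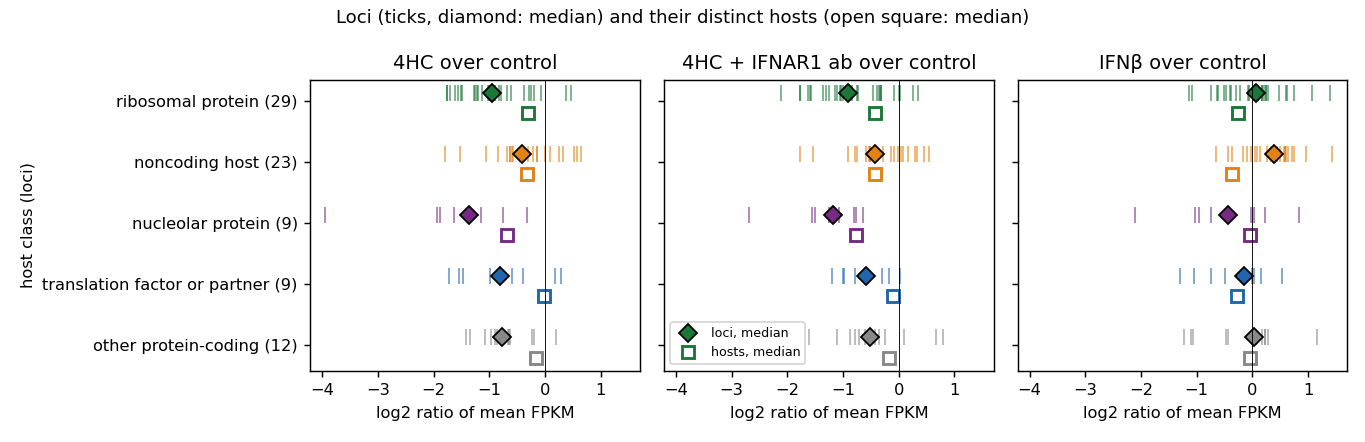
Log2 ratio of mean FPKM of each snoRNA locus (ticks) with the median of the loci (diamonds) and of their distinct hosts (open squares), by host class with the number of loci in brackets, for the 3 comparisons with control. After 4HC the nucleolar and ribosomal protein classes have the lowest locus medians (−1.37 and −0.96), and with IFNβ the noncoding class has the highest (0.39).

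With the IFNAR1 antibody added to 4HC and kept in the medium afterwards, the loci again lay below control. By the counting rule 25 of 84 loci were called lower (29.8%) and 0 higher, against 13.5% of the other short loci called lower and 11.4% called higher, and 3.23% and 12.9% of rows over 1 FPKM past 2-fold lower and higher. By limma 19 loci fell and 0 rose, against 4.86% and 9.19% of the other short loci, and at an unadjusted p under 0.05 there were 30 lower and 0 higher, against 13% and 18.9%. The median log2 ratio was −0.60 over the loci, −0.02 over the other short loci and 0.04 over all rows over 1 FPKM. The antibody libraries were wholly below control at 35 loci, against 20.5% of the other short loci. All 19 loci that fell were also called lower by the counting rule. Leaving out control library b left 10 loci that fell, all of them among the 19, and 9 of the 19 passed with any of the 5 libraries left out.

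Several of the loci named for 4HC alone had like values: Snora7a had a ratio of 0.230, Snora65 of 0.294, Snord49b of 0.294, Snora21 of 0.324 and Snora75 of 0.339. Snord53 and Snord11 stood nearer to control with the antibody. The log2 ratio of Snord53 was −2.68 with the antibody and −3.94 with 4HC alone. That of Snord11 was −0.77 (not called) and −1.89. Neither locus was called in the direct comparison of the 2 groups. Snord42b, a C/D locus in Rpl23a (chr11:77996560-77996615), had 12.9, 9.26 and 14.2 FPKM with 4HC, 14, 9.47 and 18.5 with 4HC + IFNAR1 antibody, 15.1, 16 and 15.7 with IFNβ, and 30.0 and 38.9 in control. Every treated library was below both controls at Snord42b, and the ratio was 0.352 for 4HC (limma adjusted p = 0.00505) and 0.407 with the antibody (adjusted p = 0.00899). The 4 Rpl13a loci were all called lower with the antibody too, from 0.331 at Snord35a to 0.422 at Snord34. Of the 59 hosts, 5 were below a ratio of 0.5 with the antibody, against 3.23% of rows over 1 FPKM past 2-fold lower. They were the nucleolar protein genes Gnl3 and Wdr43 (log2 −1.09 each), Rpl13 (−1.11), Zfas1 (−1.04) and Snhg9 (−1.60). Snhg9 was under 1 FPKM, at 0.281 with the antibody and 0.855 in control. The locus minus host difference had a median of −0.22. Both comparisons use the same 2 control libraries, so their values are given side by side and are not independent.

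The direct comparison of 4HC + IFNAR1 antibody with 4HC asked what receptor blockade changed. The median log2 ratio of the 84 loci was 0.06, within a range of −0.48 to 1.29, and that of the other short loci was 0.05. By the counting rule 0 loci were called lower and 1 higher (1.19%), against 1.08% of the other short loci in each direction. By limma 0 snoRNA loci and 0% of other short loci passed in either direction, 0 snoRNA loci had an unadjusted p under 0.05 (other short loci 1.08% lower and 0.541% higher), and the smallest adjusted p of a snoRNA locus was 0.977. The 1 locus called higher was Snora47 (in Zbed3), with 3.83, 1.65 and 0.829 FPKM with the antibody and 1.41, 0.425 and 0.742 with 4HC alone. The groups overlap at Snora47 (ratio 2.45, counting interval 1.23 to 5.23), and its log2 ratio was 0.53 without antibody library a and 0.97 without 4HC library b, when it was not called. At the 4 loci with the highest FPKM the ratio and its counting interval were 0.825 (0.755 to 0.920) at Snora65, 0.917 (0.845 to 1.02) at Snord22, 1.24 (1.06 to 1.46) at Snord12 and 1.07 (0.937 to 1.24) at Snord96a. The intervals of Snora65 and Snord12 excluded 1, and neither locus passed limma (adjusted p = 0.977 each). The libraries of Snora65 overlapped. Snord12, in Zfas1, had 51.2, 44.2 and 50.3 FPKM with the antibody, all above 37.4, 38.2 and 42.0 with 4HC alone (limma log2 0.31, SE 0.18). A p above the threshold does not show that the groups were alike.

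**Figure D5:**
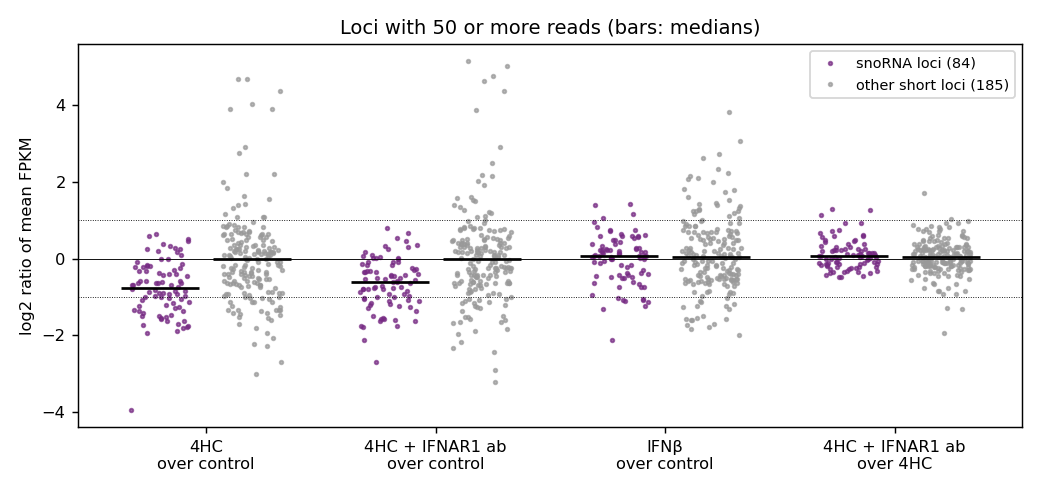
Log2 ratio of mean FPKM for each of 84 snoRNA loci (purple) and 185 other short loci (grey) in the 4 comparisons, with bars at the medians and dotted lines at 2-fold. The snoRNA medians are −0.77 and −0.60 for the 2 groups exposed to 4HC over control, and 0.06 both for IFNβ over control and for the antibody group over 4HC.

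IFNβ alone, the third comparison with control, had few loci past the threshold, in both directions. By the counting rule 8 of 84 loci were called lower (9.52%) and 4 higher (4.76%), against 8.11% and 14.6% of the other short loci and 3.79% and 7.39% of rows over 1 FPKM past 2-fold. By limma 1 locus fell (other short loci 2.16%) and 2 rose (8.65%), and at an unadjusted p under 0.05 there were 9 lower and 7 higher, against 10.8% and 17.8% of the other short loci. The IFNβ libraries were wholly below control at 15 loci and wholly above at 17, against 18.9% and 23.2% of the other short loci. The median log2 ratio was 0.06 for the loci and 0.05 for the other short loci. Each of the 3 loci that passed missed the threshold once at least 1 of the libraries was left out.

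Snora24, an H/ACA locus in the noncoding host Snhg8 (chr3:123210854-123210984), rose with IFNβ. It had 12.6, 12.5 and 16.4 FPKM with IFNβ and 4.73 and 5.48 in control, with 6.84, 7.63 and 9.35 with 4HC and 4.27, 5.41 and 9.44 with 4HC + IFNAR1 antibody. The IFNβ libraries were above all others (ratio 2.71 over control, interval 1.94 to 3.75, limma log2 1.41, SE 0.34, adjusted p = 0.00996), and without IFNβ library c or control library b Snora24 no longer passed (adjusted p up to 0.0607). Snhg8 was at 30.9 FPKM with IFNβ and 34.7 in control.

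Snord16a, in the ribosomal protein gene Rpl4 (chr9:64023238-64023329), had 31.8, 35.1 and 26.3 FPKM with IFNβ against 9.83 and 19.9 in control, with no overlap (log2 1.13, SE 0.36, limma adjusted p = 0.0481). With IFNβ library a, b or c left out Snord16a no longer passed, and without control library a its log2 change was 0.63. Snora69, in Rpl39 (ratio 2.62), and Snord17, in Snx5 (2.23), were called higher and did not pass limma (adjusted p = 0.128 and 0.165). Snord42b fell (ratio 0.453, log2 −1.12, SE 0.34, limma adjusted p = 0.0401). With IFNβ library a, b or c left out Snord42b no longer passed, and without control library b its log2 ratio was −0.94. The other 7 loci called lower did not pass limma: Snord53 (ratio 0.232, adjusted p = 0.174), Snord66 in Eif4g1 (0.405), Snord88a (0.427), Snord88c (0.466), Snord73a (0.471), Snord37 (0.482) and Snord19 (0.488). The Snord88c call rests on control library a, at 11.6 FPKM beside 2.12 in control library b. Without control library a the count called lower was 4 and without IFNβ library b it was also 4, and without control library a the count called higher was 7.

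With IFNβ several noncoding hosts were at lower levels than in control while their loci were not called lower. Of 59 hosts, 5 were below a ratio of 0.5, against 3.79% of rows over 1 FPKM past 2-fold lower. All 5 are noncoding: 2410006H16Rik was at 137 FPKM with IFNβ and 574 in control, Snhg12 at 24.9 and 81.2, Zfas1 at 48.4 and 136, 1110038B12Rik at 74.6 and 172, and 1810032O08Rik at 7.71 and 17.1. Gas5, a host known for transcripts degraded by nonsense-mediated decay, was at 42.8 and 84.4. The 12 loci in the first 5 of these hosts had ratios of 0.884 to 1.68, and 0 of them were called. Of the other short loci 8.11% were called lower and 14.6% higher, so 0 calls among so few loci says little. The Snhg12 loci had ratios of 1.26 at Snora61, 1.31 at Snora16a, 1.41 at Snord99 and 1.5 at Snora44. Snord52, in 1110038B12Rik, had 49.8, 70.6 and 86.0 FPKM with IFNβ against 46.4 and 37.8 in control (ratio 1.63, limma adjusted p = 0.0829). Snord12, in Zfas1, had 72.8, 76.1 and 84.3 against 61.4 and 79.7 (ratio 1.1), and Snord49b had a ratio of 0.884. Over the 23 loci in 15 noncoding hosts, the median log2 ratio was 0.39 for the loci and −0.37 for the hosts, and 20 loci were above their host. For loci in ribosomal protein genes the medians were 0.06 and −0.26, with 22 of 29 loci above their host.

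After 4HC these hosts stood nearer to control: 2410006H16Rik at 388 FPKM, Snhg12 at 67.4, Zfas1 at 84.1, 1110038B12Rik at 132 and Gas5 at 63.9. Snord12 was at a ratio of 0.555 after 4HC (limma log2 −0.83, adjusted p = 0.00529) and 1.1 after IFNβ, while Zfas1 was lower after IFNβ (48.4 FPKM) than after 4HC (84.1 FPKM). The 2 groups were also collected at different times after exposure. By the study's methods, IFNβ cultures were seeded at more cells per well than 4T1 cultures given 4HC. Treatment, time and seeding cannot be told apart. Those methods do not state how control cultures were seeded, so seeding may also differ between IFNβ and control.

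Genes that make and trim snoRNAs were read as group means, with no test. Of 8 genes of the snoRNA core proteins, 3 were past 2-fold lower after 4HC and with the antibody and 0 with IFNβ, with median log2 ratios of −0.65, −0.80 and 0.07. For this and the lists that follow, the shares of all rows over 1 FPKM past 2-fold lower were 1.94%, 3.23% and 3.79% in the same 3 comparisons, and past 2-fold higher 12.7%, 12.9% and 7.39%. The 3 were Fbl, the methyltransferase fibrillarin of box C/D particles (57.0 FPKM with 4HC, 49.6 with the antibody, 123 with IFNβ, 139 in control), and Gar1 (16.8, 14.3, 36.3 and 37.5) and Nop10 (24.1, 23.7, 45.0 and 52.5) of box H/ACA particles. Of 9 assembly factors, 1 was past 2-fold lower after 4HC (Naf1, an H/ACA assembly factor, log2 −1.04), 2 with the antibody and 0 with IFNβ. Of 17 genes of intron lariat opening, trimming and decay, 1 was past 2-fold lower after 4HC (Dis3, an exosome nuclease, −1.20), 2 with the antibody and 0 with IFNβ. Of 10 genes of nonsense-mediated decay, 0 were past 2-fold in any of the 3 comparisons. Of 15 listed noncoding snoRNA hosts over 1 FPKM, 0 were past 2-fold lower after 4HC, 2 with the antibody and 3 with IFNβ, where 1 (Snhg4) was past 2-fold higher.

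The row for the ribosomal RNA locus, Rn45s, was at 300 FPKM with 4HC, 284 with the antibody, 338 with IFNβ and 1038 in control. These are group means without values per library, from libraries of polyadenylated RNA. Whether such reads follow the level of the ribosomal RNA precursor was not tested. The mean of Rn45s was thus below control in all 3 treated groups, whereas the median log2 ratio of the snoRNA loci was below 0 in the 2 that received 4HC and 0.06 with IFNβ. The part of the ribosomal RNA reads in these results was not tested.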

How the data were processed

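Polyadenylated RNA of 11 4T1 cultures was sequenced with a directional kit. The submitters' processing notes name mm9, TopHat2, featureCounts and edgeR without versions, and whether strand was used in counting is not given in the sources used here. The authors deposited 1 table of mean FPKM per group with coordinates, and with their own ratios, fold changes and p-values of group comparisons, which were not used. Snord and Snora members, host classes and gene lists were chosen with earlier results of these data known.

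Whole reads per library were recovered by arithmetic from the deposited FPKM means, row length and integer library depths. A unique solution was found for all 105 loci (100%) and for 99.9% of the other rows of 300 bases or less, to 11 decimals, and each library's reads were then divided by its depth. The recovered libraries could not be tied to replicate numbers. Depth was 32.1 to 49.3 M reads, in which mates may have been counted separately. As planned, a locus with 50 or more reads was called from the ratio of mean FPKM (over 2 or under 0.5, exact conditional binomial 95% interval). Intervals cover counting error only. The limma fit (limma 3.58.1, R 4.3.3, trended, log2 with 0.5 reads added, 269 loci, 4 groups together, Benjamini-Hochberg adjustment over the 269) was added after the data were seen, when reads per library proved recoverable, and was tested on simulated data. The simulated reads were drawn independently at each locus, so shifts shared by the loci of a library were not covered. The p-values weigh differences between groups against the spread between cultures of 1 line. Hosts and list genes were read as group means, without a test. Loci were named by a rule: the 10 highest mean FPKM, the 6 lowest and 6 highest ratios among called loci of each comparison, loci of hosts with 4 or more, and a fixed list. Loci listed by their limma result, and Snord82, Snord49a and Snord65, were chosen after their values were seen. Names were matched to GENCODE M21 and to RefSeq synonyms. Alternatives were the minimum of reads, the fold, scaling to the median row, halved reads, limma settings and leaving out each library.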

Additional observations from a re-analysis of the deposited data

How the results depend on the processing

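No paired analysis was possible because the recovered libraries carry no replicate numbers. Over the 84 loci, the medians for 4HC and for 4HC + IFNAR1 antibody over control stayed below 0 under every setting run, whereas those for IFNβ over control and for 4HC + IFNAR1 antibody over 4HC crossed 0 when a library was left out, and that for 4HC + IFNAR1 antibody over 4HC was also −0.0021 at a minimum of 200 reads. The count called lower for 4HC over control was 18 by limma and 17 by limma at a minimum of 200 reads, against 30 by the counting rule. The counting rule also depends on its settings here. At 1.5-fold Snord12 (ratio 0.555) and Snord22 (0.648) would qualify, among others. At 200 reads Snord43 (134 reads) and Snord66 (146 reads), both called lower, would be left out, among others. Counts called lower under these 2 settings are not given for 4HC or 4HC + IFNAR1 antibody over control. For IFNβ over control the count called lower, 8 in the report, was 3 at a minimum of 200 reads, 14 at 1.5-fold, 1 by limma, 2 by limma with 2 reads added, 1 by limma at 200 reads and 1 by limma after scaling to the median row. The count called higher, 4 in the report, was 2 at 200 reads, 10 at 1.5-fold, 2 by limma, 2 with 2 reads added, 1 at 200 reads by limma and 1 after scaling. At 1.5-fold, 1 locus was called higher for 4HC over control and 1 for 4HC + IFNAR1 antibody over control, against 0 each. For 4HC + IFNAR1 antibody over 4HC, the count called higher was 2 at a minimum of 1 read, 0 at 200 reads, 3 at 1.5-fold, 0 with reads halved and 0 under each limma setting. The cause of these moves was not tested, beyond the smaller number of loci at a higher minimum.

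With each library left out in turn, loci called lower numbered 23 to 36 for 4HC, 20 to 37 for 4HC + IFNAR1 antibody and 4 to 9 for IFNβ over control, and 0 to 1 for 4HC + IFNAR1 antibody over 4HC. Those called higher numbered 0 to 1, 0 to 3, 3 to 7 and 0 to 4 in the same order. The median log2 ratio ran from −0.96 to −0.44 (−0.44 without control library a), −0.88 to −0.45, −0.02 to 0.14 and −0.16 to 0.18. By limma, 13 to 20 loci fell after 4HC, 10 to 24 with the antibody, and 0 to 1 fell and 0 to 4 rose with IFNβ. With a library left out, the log2 ratio of Snord88c ran from −1.87 to 0.58 for 4HC + IFNAR1 antibody over control and from −1.86 to 0.60 for IFNβ over control, above 0 without control library a. Leaving out a library was not run for the difference from the host, whose reads per library were not recovered, and gave no value for Snora47 without control library a, since control library b had 0 reads there. With 2 control libraries, every comparison with control leans on few cultures.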
